A study of Rattus norvegicus with 16 samples.

Results

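A set of 10 genes of leukocyte recruitment was followed in the renal outer medulla of rats given 2-amino-4-nitrophenol (ANP): the chemokines Cxcl1, Ccl2, Ccl20, Cxcl16, Cx3cl1, Cxcl10 and Cxcl11, the cytokine Il6, and the endothelial adhesion molecules Icam1 and Sele. They are 10 of the 15284 genes with a named probe on the array and are covered by 13 probes, since Cx3cl1, Ccl20 and Sele have more than 1. They were chosen by name as chemokine and leukocyte adhesion genes, and 8 of them (NF-kB type) were set against the other 2, Cxcl10 and Cxcl11 (interferon type). Male Crl:CD Sprague-Dawley rats, 5 weeks old at the start, received ANP in corn oil by gavage at 750 mg/kg/day or corn oil alone (the vehicle). Total RNA taken at days 1, 7, 14 and 28 of dosing was hybridised to 16 Agilent arrays of the 1-colour kind. At day 1 the ANP group and the vehicle group had 1 array each, of RNA mixed from 3 animals, and the same held at day 7. At day 14 the ANP group and the vehicle group had 3 arrays each, every array from its own animal, and the same held at day 28. A pool carries no measure of the spread between animals, so days 1 and 7 are given as ratios of 2 arrays without a test. The p-values of days 14 and 28 measure the spread between animals within these groups.

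Chemokines are small secreted or membrane-bound proteins that draw leukocytes along a gradient and activate their integrins. Cxcl1 acts mainly on neutrophils, Ccl2 on monocytes, Ccl20 on Ccr6-bearing lymphocytes and dendritic cells, and Cxcl10 and Cxcl11 on T and NK cells through Cxcr3. Cxcl16 and Cx3cl1 are made as transmembrane proteins that are also shed, and they bind Cxcr6 and Cx3cr1. Sele slows leukocytes on activated endothelium and Icam1 holds them by binding beta-2 integrins. Transcription of many of these genes is driven by NF-kB after tumour necrosis factor or interleukin 1, while Cxcl10 and Cxcl11 are also induced by interferons through response elements bound by STAT and IRF factors. Injured tubule cells, endothelium and resident macrophages are known sources of these factors in the kidney.

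The promoters of 4 chemokines of both types are printed because these genes separate in the values below. Each run covers 250 bases before to 50 bases after the start that the RefSeq promoter table uses in the GRCr8 assembly, which is the annotated start of the gene for Cxcl1, Cxcl10 and Cxcl11 and lies 20 bases inside the annotated gene for Ccl20. The runs are read 5′ to 3′ on the gene's strand: Cxcl1 at chr14:17479272-17479571 (minus strand), Ccl20 at chr9:91836909-91837208 (plus strand), Cxcl10 at chr14:15988816-15989115 (plus strand) and Cxcl11 at chr14:15973478-15973777 (plus strand). Capitals mark matches on either strand to a broad NF-kB motif (GGG, any 5 bases, CC), an interferon-stimulated response element motif (GAAA, any 2 bases, GAAA) or an AP-1 motif (TGANTCA).
Cxcl1: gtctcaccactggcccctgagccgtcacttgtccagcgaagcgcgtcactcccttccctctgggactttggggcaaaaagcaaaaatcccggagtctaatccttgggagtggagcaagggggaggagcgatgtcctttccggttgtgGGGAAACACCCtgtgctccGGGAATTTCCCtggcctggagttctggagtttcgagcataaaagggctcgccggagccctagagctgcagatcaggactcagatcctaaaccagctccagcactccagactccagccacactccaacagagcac
Ccl20: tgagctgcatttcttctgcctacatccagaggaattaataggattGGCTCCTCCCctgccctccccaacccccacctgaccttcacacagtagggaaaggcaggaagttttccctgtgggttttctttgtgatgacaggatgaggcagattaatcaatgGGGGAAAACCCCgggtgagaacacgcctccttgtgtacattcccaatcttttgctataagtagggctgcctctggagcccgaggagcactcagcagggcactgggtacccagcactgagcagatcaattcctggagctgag
Cxcl10: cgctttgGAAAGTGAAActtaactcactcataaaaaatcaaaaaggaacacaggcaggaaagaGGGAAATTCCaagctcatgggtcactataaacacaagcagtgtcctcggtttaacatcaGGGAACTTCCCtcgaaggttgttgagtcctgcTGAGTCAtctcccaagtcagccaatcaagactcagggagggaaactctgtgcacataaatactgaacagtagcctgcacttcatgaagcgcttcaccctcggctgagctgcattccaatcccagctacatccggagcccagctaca
Cxcl11: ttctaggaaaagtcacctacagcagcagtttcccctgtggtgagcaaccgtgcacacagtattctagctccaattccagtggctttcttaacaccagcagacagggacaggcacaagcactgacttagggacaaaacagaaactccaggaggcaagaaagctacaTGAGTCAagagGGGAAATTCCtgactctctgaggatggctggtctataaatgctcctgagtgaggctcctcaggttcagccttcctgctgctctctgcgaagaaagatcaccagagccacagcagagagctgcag
In Cxcl1 the capitals hold 2 clusters of overlapping NF-kB matches, the second of which reads GGGAATTTCC and begins 84 bases before that start. Cxcl10 held 2 sites of NF-kB matches, which begin 187 and 128 bases before the start, the interferon motif GAAAGTGAAA 243 bases before the start and an AP-1 match. Cxcl11 held 1 NF-kB match (GGGAAATTCC, 74 bases before the start) and 1 AP-1 match, and no match to the interferon motif lay in its window. In Ccl20 the matches were to the broad NF-kB motif only. The broad motif was present in 48.5% of the 27457 promoters of the table, the interferon motif in 3.77% and the AP-1 motif in 7.33%. A narrower NF-kB motif (GGGA, any 2 bases, TTCC), chosen after the matches had been seen, was present in 1.29% of all promoters and in those of Cxcl1, Cxcl10, Cxcl11 and Il6. It overlaps the broad motif by construction. Of the other members, Il6 and Icam1 held a broad NF-kB match, Cxcl16 held no match to any of the motifs, and Ccl2 was not analysed here. The windows of Icam1, Sele and Cx3cl1 are centred on starts 157, 517 and 2036 bases inside the annotated genes, so they do not cover the sequence before the outermost start; those of Sele and Cx3cl1 held no match. The NF-kB letters were thus found in both interferon type promoters, and Cxcl10 and Cxcl11 lie next to each other on chromosome 14 with 0 protein-coding genes between them. A match is a description of letters and not evidence of binding.

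Levels are log2 of the processed spot signal relative to the 75th percentile of its array, so that 0 is that percentile and each unit is a doubling; levels of different probes are not comparable. Between 64.75% and 69.6% of probes were well above background (the scanner software's own mark) on each array. Replicate arrays of a group correlated at 0.98758 or more over the probes well above background on all 16 arrays, which leaves out the dim ones. The thick ascending limb markers of the outer medulla were well above background on all 16 arrays (7 of 7 on the array, Umod among them), as were the 8 of 8 markers of the straight proximal tubule, but so were the 9 of 9 cortical markers. The cortical list's median log2 ratio of ANP over vehicle was -0.27, 0.48, -0.73 and -0.94 at days 1, 7, 14 and 28, and its part in the results was not tested. The arrays lay on 4 slides. All pools shared 1 slide, the ANP arrays of day 28 had 1 slide of their own, the vehicle arrays of day 28 shared a slide with ANP replicates 2 and 3 of day 14, and ANP replicate 1 of day 14 lay with the vehicle arrays of day 14. At day 28, slide and group cannot be told apart. In tissue RNA, fewer cells of a type and less RNA per cell cannot be told apart.

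**Figure D1:**
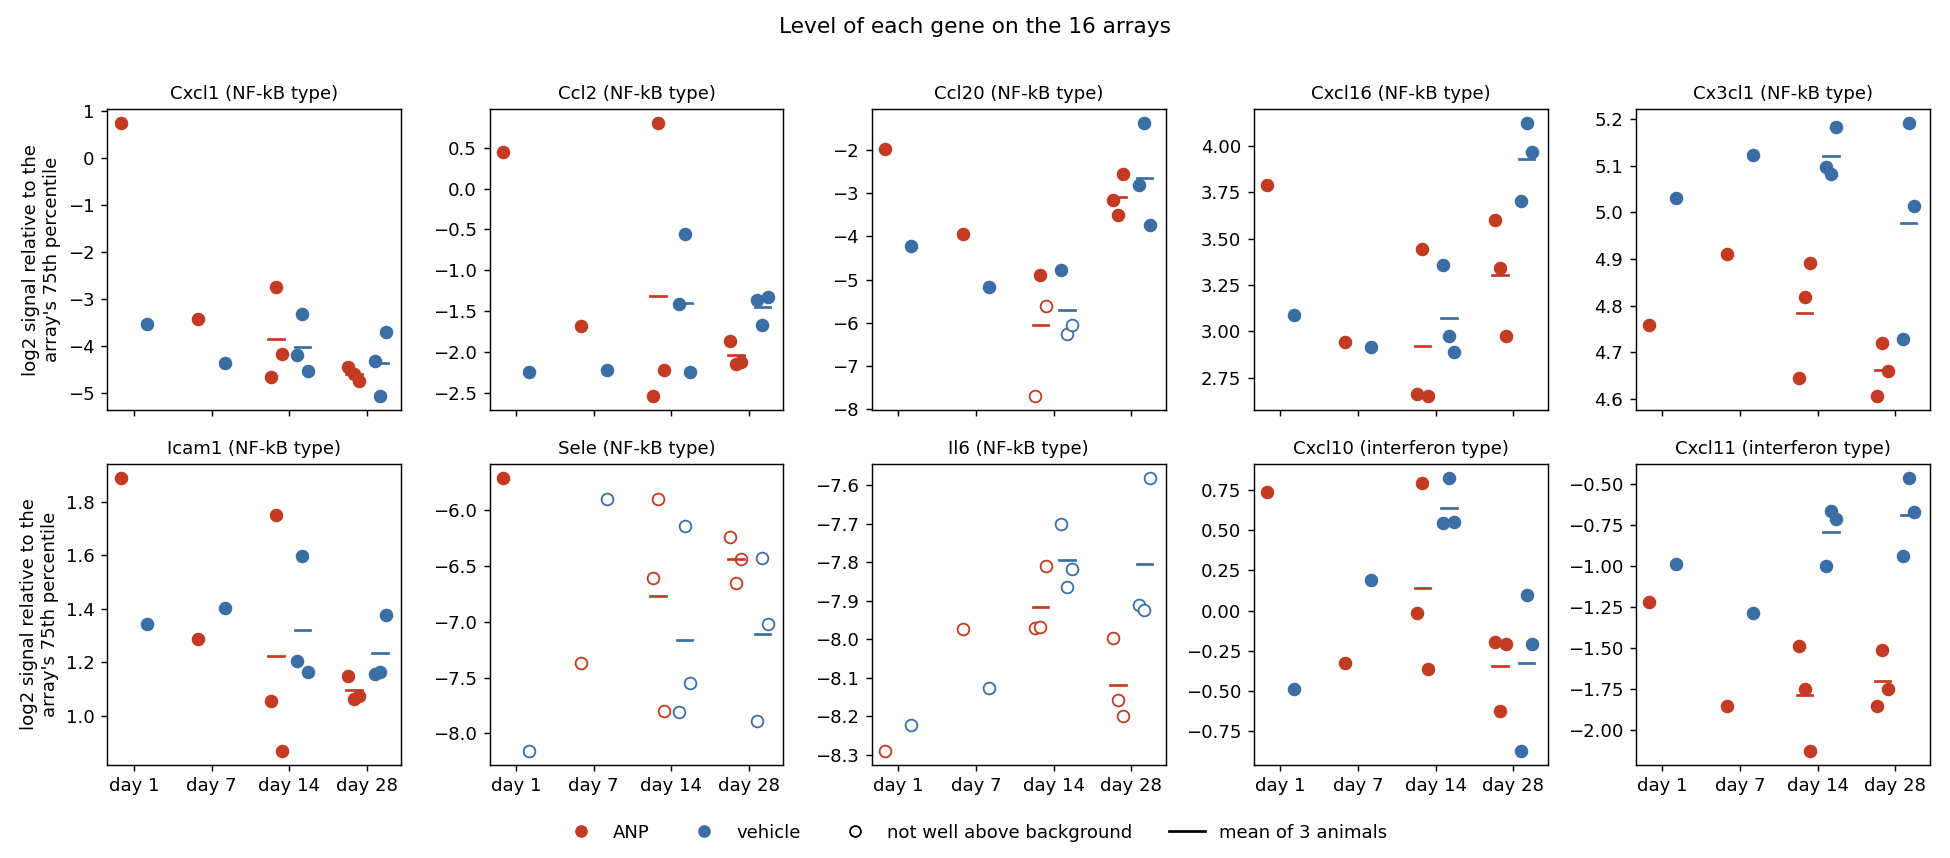
Level of the 10 genes on each of the 16 arrays (y axis: log2 signal relative to the array's 75th percentile, on a separate scale for each gene; x axis: day of dosing), with ANP in red and vehicle in blue; filled points were well above background, open points were not, and bars are means of 3 animals. Cxcl1 and Ccl2 stood highest in the ANP pool of day 1 apart from 1 ANP animal of day 14 for Ccl2, and Cxcl11 lay lower in every ANP animal than in every vehicle animal at days 14 and 28.

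After 1 day, the ANP pool held much more Cxcl1, Ccl2 and Ccl20 RNA than the vehicle pool, about 2-fold more Cxcl10, and no more Cxcl11 or Cx3cl1. Of the 10 members, 8 were well above background in both pools, and 4 of these were at least 2-fold higher in the ANP pool (Cxcl1, Ccl2, Ccl20 and Cxcl10) while 0 were at least 2-fold lower. Of the 11910 genes well above background in both pools, 3.77% were higher by that much and 3.86% lower. The median log2 ratio of the 8 members was 0.96, beside -0.04 over all these genes. Sele was measured in the ANP pool alone and Il6 in neither. For the gene lists below, a gene needed signal in at least 1 pool, and of the 12413 genes that met this, 4.83% passed 2-fold upward and 4.96% passed it downward.

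Cxcl1, the neutrophil attractant, had a level of 0.74 in the ANP pool of day 1, against -3.54 in the vehicle pool, a log2 ratio of 4.27 or 19.4-fold. Ccl2, the monocyte attractant, had a level of 0.45 in the ANP pool, against -2.25 in the vehicle pool, a 6.51-fold difference. Ccl20 had a level of -1.98 in the ANP pool, against -4.23 in the vehicle pool with its brighter probe (4.77-fold), and its other probe gave 3.89-fold. These differences were the widest among the members with signal in both pools. Cxcl16 was at 3.79 in the ANP pool, against 3.09 in the vehicle pool (1.63-fold), and Icam1 at 1.89, against 1.34 (1.46-fold), both short of 2-fold. Cx3cl1, the ligand of the monocyte receptor Cx3cr1, was at 4.76 in the ANP pool, against 5.03 in the vehicle pool, a log2 ratio of -0.27. Transcripts for transmembrane ligands and for Icam1 thus differed by less between the day 1 pools than did those for Cxcl1, Ccl2 and Ccl20.

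The interferon type pair divided at day 1. Cxcl10 had a level of 0.73 in the ANP pool, against -0.49 in the vehicle pool, which is 2.33-fold. Cxcl11 had a level of -1.22 in the ANP pool, against -0.99 in the vehicle pool, a log2 ratio of -0.23. The median log2 ratio was 1.48 over the 6 NF-kB type members measured in both pools and 0.50 over the interferon type pair, although Cxcl10 exceeded Cxcl16, Icam1 and Cx3cl1 of the NF-kB type. With 1 pool a group, none of these differences has a replicate check.

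Sele and Il6 lay at the limit of the array. Sele has 2 probes; one was well above background in the ANP pool of day 1 alone, at -5.71, against -8.16 and not well above background in the vehicle pool, which sets the difference at no less than 1.26-fold higher. The bound is the ANP signal over the lowest signal that counted as well above background on the vehicle array. The other Sele probe was well above background on 0 of the 16 arrays. Il6, an inducer of the acute phase response, was likewise well above background on 0 of the 16 arrays, with levels between -8.29 and -7.58, so the array gives it no ratio.

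**Figure D2:**
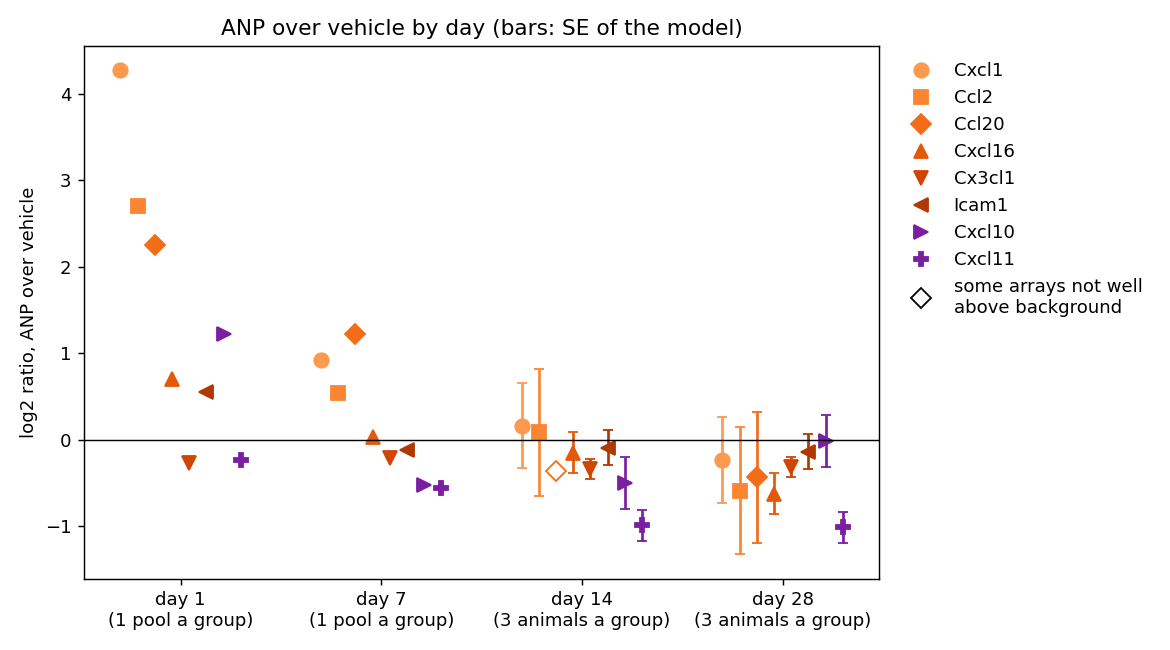
Log2 ratio of ANP over vehicle (y axis) by day (x axis) for the 8 members other than Il6 and Sele, NF-kB type in orange and interferon type in purple; points of days 14 and 28 carry the model's SE (3 animals a group) and those of days 1 and 7 are ratios of 2 pools. Open symbols, here Ccl20 at day 14, mark values for which some arrays were not well above background and carry no bar. Cxcl1 and Ccl2 had ratios of 4.27 and 2.70 at day 1 and of 0.16 and 0.08 at day 14, while Cxcl11 had ratios near -1 at days 14 and 28.

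The genes around the members at day 1 were mostly level, with a few large ratios. Of 24 other chemokines measured, 7 were at least 2-fold higher in the ANP pool and none lower by that much (0 of 24), yet the list's median was 0.04. Cxcl13, the B cell attractant, had a level of 0.81 in the ANP pool, against -2.58 in the vehicle pool (10.5-fold), and Cxcl2, a neutrophil attractant like Cxcl1, had -2.83 and -5.26 in the ANP and vehicle pools (5.40-fold). Ccl7, a monocyte attractant, was measured in the ANP pool alone and was at least 3.45-fold higher, and Ccl4 was 2.81-fold higher. Ccl25, which is counted among the 7, was also measured in the ANP pool alone, with a bound of 1.99-fold. Among 17 other adhesion genes, Cd44, the hyaluronan receptor, was 6.37-fold higher and Itgam, the alpha chain of the integrin Mac-1, at least 2.84-fold higher; 0 were 2-fold lower. No array measured Selp, which encodes P-selectin, well above background. Of 12 chemokine receptors, 0 were at least 2-fold higher and 1 lower, namely Cxcr2, the receptor for Cxcl1 (-5.18 in the ANP pool, against -3.51 in the vehicle pool).

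Regulators and targets of NF-kB and the interferon response genes differed in their counts at day 1. Of 16 NF-kB regulators and targets, 4 were 2-fold higher or more and 0 lower, with a median of 0.48. They were Il1b (3.69-fold), Bcl3, a nuclear IkB protein (2.96-fold), Tnf (2.88-fold) and Birc3, a ubiquitin ligase of the TNF receptor complex (2.20-fold). Of 35 interferon response genes, 0 were at least 2-fold higher, 3 were at least 2-fold lower and 27 were below 0, with a median of -0.26. Those 3 were Usp18, a brake on interferon receptor signalling (2.57-fold), Oas1a, an antiviral oligoadenylate synthetase (2.54-fold), and Irf7, a transcription factor (2.13-fold). Ifng and Ifnb1 were well above background on no array. In the IL6 family list, 1 of 15 genes was at least 2-fold higher, the oncostatin M receptor Osmr (3.60-fold).

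Markers of leukocytes and of tubular injury were not equally shifted at day 1. The neutrophil list had 3 of 6 measured markers at least 2-fold higher (S100a8, S100a9 and Lcn2) and 1 at least 2-fold lower (Cxcr2). Lcn2, which injured tubules also make and which is in the tubular injury list too, carried most of the neutrophil list's summed level, with 3.26 in the ANP pool, against 0.48 in the vehicle pool, as multiples of the 75th percentile signal. The other 7 neutrophil markers on the array summed to 0.41 in the ANP pool, against 0.31 in the vehicle pool. Levels of different probes are not comparable, so each sum here and below mostly follows the brightest probes of its list. The granule protein genes Elane and Mmp8, which are transcribed mainly in marrow precursors of neutrophils, were well above background on no array. The summed level of the 11 macrophage markers was 83.3 in the ANP pool, against 87.1 in the vehicle pool, and that of the 8 endothelial markers 99.7 and 106. The tubular injury list had 7 of 8 genes at least 2-fold higher, a median of 2.34 and a summed level of 231 in the ANP pool against 55.6 in the vehicle pool. Of 8 markers of the straight proximal tubule, 4 were at least 2-fold lower and 0 higher, with a median of -1.03 and a summed level of 365 in the ANP pool, against 671 in the vehicle pool. The part of these markers in the chemokine ratios was not tested.

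**Figure D3:**
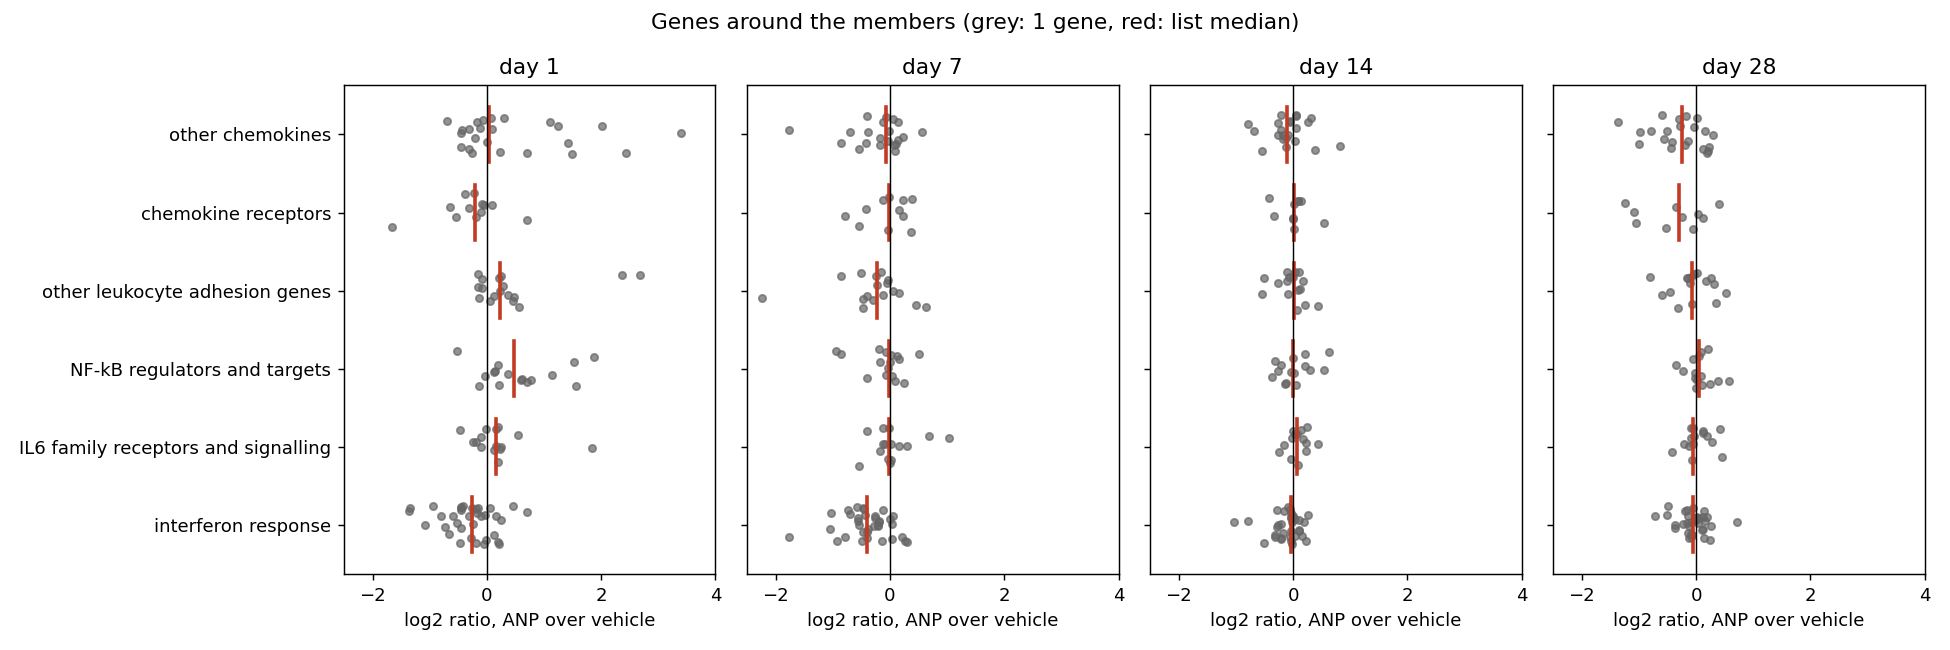
Log2 ratio of ANP over vehicle (x axis) for the genes of 6 lists around the members at days 1, 7, 14 and 28; each grey point is a gene and each red bar the list's median. At day 1 the list of other chemokines reached 3.39 around a median of 0.04, the NF-kB list had a median of 0.48 and the interferon list one of -0.26.

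At day 7 most of the day 1 differences were small. Of the 8 members measured, 1 was at least 2-fold higher, beside 2.12% of 12122 genes measured in those pools, and 0 were at least 2-fold lower, beside 2.53%. That member was Ccl20, at -3.95 in the ANP pool, against -5.17 in the vehicle pool (2.33-fold). Its other probe was not well above background in the vehicle pool and gave a plain ratio of 2.40-fold, which is not a lower bound. With normexp background correction the Ccl20 log2 ratio was 0.55 and below 2-fold. Cxcl1 was at -3.43 in the ANP pool, against -4.35 in the vehicle pool (1.90-fold), and Ccl2 was at -1.68 and -2.22 in the ANP and vehicle pools. The remaining NF-kB type ratios lay between -0.21 and 0.03.

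Both interferon type genes were lower in the ANP pool of day 7, by less than 2-fold. Cxcl10 was at -0.33 in the ANP pool, against 0.19 in the vehicle pool, and Cxcl11 at -1.85, against -1.29. The median log2 ratio of this pair was -0.54, beside 0.28 over the 6 NF-kB type members measured and 0.04 over all genes. Of the 35 interferon response genes, 28 were below 0 and 3 at least 2-fold lower, with a median of -0.40. Of 21 other chemokines 0 were at least 2-fold higher and 1 lower, and 0 of 16 NF-kB regulators and targets differed by 2-fold. The chemokine was Cxcl9, the third ligand of Cxcr3, at -4.97 in the ANP pool, against -3.21 in the vehicle pool (3.39-fold lower). The interferon response genes Irf7 and Usp18 were 2.07-fold and 2.04-fold lower. Several marker lists were also lower: 10 of 11 macrophage markers were below 0 (summed level 81.0 in the ANP pool, against 115 in the vehicle pool). So were 10 of 11 T and NK cell markers and 8 of 8 endothelial markers. The lean was not limited to these lists, since 7 of 8 collecting duct and 5 of 7 thick ascending limb markers were below 0. Fewer lay below 0 among B cell (2 of 4), straight proximal tubule (3 of 8) and cortical markers (0 of 9). Their part in the lower Cxcl10 and Cxcl11 levels was not tested.

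At day 14, Cxcl11 was the member that passed the test, and it was lower in ANP animals. In the limma fit of the 12 single-animal arrays, 1 of the 8 members tested was lower and 0 higher, beside 0.118% of 11849 genes lower and 0.363% higher (adjusted p under 0.05); at an unadjusted p under 0.05 it was 2 members, beside 13.4% of genes. Groups did not overlap for 2 members, Cxcl11 and Cx3cl1, both lower, beside 7.8% of genes lower without overlap. The median log2 ratio was -0.10 over the 5 NF-kB type members well above background in all 6 animals and -0.75 over the interferon type pair, beside 0.01 over all genes.

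Cxcl11, the Cxcr3 ligand, was at -1.49, -1.75 and -2.13 in the 3 ANP animals of day 14, against -1.003, -0.67 and -0.71 in the 3 vehicle animals. Every ANP value lay below every vehicle value. The log2 ratio was -0.99 ± 0.18 (SE), or 1.99-fold lower, with an adjusted p of 0.0479 from limma. This call was lost in 11 of 17 other settings, among them each removal of 1 animal of day 14, the fit of the 2 groups alone (limma adjusted p = 0.141) and the slide as a fixed block, where the log2 ratio was -0.69 (limma adjusted p = 0.670) and 0 of 11849 genes were called. Over the 17 settings the ratio ran from -1.14 to -0.69 and the limma adjusted p from 0.0205 to 0.670. On the slide that held both groups, the ANP animal at -1.49 lay below its 3 vehicle neighbours.

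The NF-kB type ligands of day 1 did not separate the groups at day 14. Cxcl1 was at -4.65, -2.73 and -4.15 in ANP animals, against -4.18, -3.32 and -4.52 in vehicle animals (log2 ratio 0.16 ± 0.49 SE, 95% interval -0.93 to 1.26). Ccl2 was at -2.54, 0.80 and -2.23 in ANP animals, against -1.41, -0.55 and -2.25 in vehicle animals (log2 ratio 0.08 ± 0.74 SE, 95% interval -1.55 to 1.72). Within both groups animal 2 was the highest for both genes, and the groups overlapped. The intervals are wide, and that of Ccl2 spans a difference of more than 2-fold either way.

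A single ANP animal of day 14, replicate 2, carried the highest ANP level of Cxcl1, Ccl2, Cxcl10, Cxcl16, Ccl20 and Icam1. Its Ccl2 level of 0.80 exceeded the 0.45 of the day 1 ANP pool. Its Icam1 level was 1.75, against 1.06 and 0.87 in the other ANP animals and 1.20, 1.60 and 1.16 in vehicle animals. The same animal had the highest tubular injury sum of that day, 135, beside 71.8 and 75.9 in the other ANP animals and 40.6 to 90.6 in vehicle animals, with Lcn2 at 1.38, beside 0.34 and 0.73 in the other ANP animals and 0.26 to 0.49 in vehicle animals. The neutrophil sum without Lcn2 was 0.40 in this animal, beside 0.28 and 0.35 in the other ANP animals and 0.30 to 0.39 in vehicle animals. Their part in the chemokine levels was not tested. Without this animal the log2 ratio of Ccl2 was -0.98 (limma adjusted p = 0.427) and that of Cxcl1 was -0.39 (limma adjusted p = 0.823), in each case opposite in sign to the value with it. Over all settings of that day the limma adjusted p ran from 0.427 to 0.998 for Ccl2 and from 0.669 to 0.998 for Cxcl1.

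Of the other members at day 14, Cx3cl1 was at 4.64, 4.82 and 4.89 in ANP animals, against 5.10, 5.08 and 5.18 in vehicle animals, a log2 ratio of -0.34 ± 0.12 (SE) that did not pass the test (limma adjusted p = 0.239); its dimmer probe gave -0.30, with overlap. Cxcl10 was at -0.01, 0.79 and -0.36 in ANP animals, against 0.54, 0.82 and 0.55 in vehicle animals (log2 ratio -0.50 ± 0.30 SE, limma adjusted p = 0.526). The groups overlapped for Cxcl10 through replicate 2. Cxcl16 and Icam1 had log2 ratios of -0.15 and -0.10. Ccl20 was well above background in 1 ANP and 1 vehicle animal only, so its 2 probes, at -0.36 and 0.75, do not settle a direction.

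Around these members, 0 of 22 other chemokines, 0 of 10 receptors, 0 of 16 other adhesion genes and 0 of 35 interferon response genes were called at day 14 by limma. At an unadjusted p under 0.05 the counts of these 4 lists were 2, 0, 1 and 4. Sod2, the mitochondrial superoxide dismutase and an NF-kB target, was the 1 of 15 NF-kB genes that was higher, with a mean level of 3.23 in ANP animals and 2.68 in vehicle animals (log2 ratio 0.54 ± 0.07 SE, limma adjusted p = 0.0140). That call was lost in 5 of 17 other settings, namely with the 2 groups alone, with the slide as a fixed block, without ANP animal 3 or vehicle animal 2, and with averaged probes, where the log2 ratio was 0.29.

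At day 28, Cxcl11 was again lower in ANP animals and was again 1 of 8 members called, beside 2.63% of all genes called lower and 4.47% called higher; 3 members had an unadjusted p under 0.05, beside 26.3% of genes. Its levels were -1.85, -1.51 and -1.75 in ANP animals, against -0.94, -0.46 and -0.67 in vehicle animals. The groups did not overlap. The log2 ratio was -1.01 ± 0.18 (SE), or 2.02-fold lower, with a limma adjusted p of 0.0130. The call was lost in 1 of 16 other settings, the removal of vehicle animal 2 (limma adjusted p = 0.0568, in a range from 0.00485). None of these settings can separate slide from group at day 28. The ANP effect on Cxcl11 differed by -0.02 between days 28 and 14 (95% interval -0.58 to 0.54, limma adjusted p = 0.990). Over all 11849 genes 0 passed this test of a difference between days (limma), while 9.27% had an unadjusted p under 0.05.

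In the main setting all 8 members tested had log2 ratios below 0 at day 28, with a median of -0.38 beside 0.02 over all genes. Over the other settings the highest ratios of Cxcl1, Cxcl10 and Ccl20 were 0.095, 0.20 and 0.20, so their sign was not fixed. Those of the remaining members stayed below 0. Slide and group cannot be told apart on that day. Groups did not overlap for 5 of the 8 members (Ccl2, Cxcl11, Cxcl16, Cx3cl1 and Icam1), all lower in ANP animals. Of all genes, 14.2% were lower without overlap. Apart from Cxcl11 none of the 5 passed the test. Over all genes the calls of day 28 were 530 higher and 312 lower, and 773 higher and 244 lower with arrays scaled to their median.

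Ccl2 was at -1.87, -2.15 and -2.12 in the ANP animals of day 28, against -1.36, -1.67 and -1.33 in vehicle animals, which gave -0.59 ± 0.74 (SE, limma adjusted p = 0.650). The SE is shared with day 14, where Ccl2 had an SD of 1.85 among ANP animals, beside 0.15 at day 28. Cxcl16 was at 3.60, 3.34 and 2.97 in ANP animals, against 3.70, 4.12 and 3.97 in vehicle animals, a log2 ratio of -0.63 ± 0.24 (SE, limma adjusted p = 0.130). Cx3cl1 was at 4.61, 4.72 and 4.66 in ANP animals, against 4.73, 5.19 and 5.01 in vehicle animals (-0.32 ± 0.12 SE, limma adjusted p = 0.119), though with its dimmer probe the groups overlapped at a log2 ratio of -0.21. Cxcl16 and Cx3cl1 were called lower in the normexp setting alone, at -0.81 and -0.46. Icam1 differed by -0.14, from 1.06 to 1.15 in ANP animals and from 1.16 to 1.38 in vehicle animals.

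Cxcl10, the neighbour of Cxcl11, had a ratio near 0 at day 28. It was at -0.19, -0.62 and -0.21 in ANP animals, against -0.87, 0.10 and -0.21 in vehicle animals, with overlapping groups and a log2 ratio of -0.02 (95% interval -0.69 to 0.65). The interval of Cxcl11 ran from -1.41 to -0.61 and so met that of Cxcl10, and the difference between the genes was not tested. Cxcl1 was at -4.45, -4.58 and -4.74 in ANP animals, against -4.31, -5.06 and -3.69 in vehicle animals, and the groups overlapped (-0.24 ± 0.49 SE). The interval of Cxcl1, -1.33 to 0.86, lay wholly below the ratio of the day 1 pools. That ratio has no measure of spread, and a change between these days was not tested.

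In the order of the 8 groups by Cxcl11 level, 3 of the 4 vehicle groups lay above all ANP groups. The 4 ANP means were -1.22 (day 1), -1.85 (day 7), -1.79 (day 14) and -1.70 (day 28), against vehicle means of -0.99 (day 1), -1.29 (day 7), -0.79 (day 14) and -0.69 (day 28). The ANP pool of day 1 and the vehicle pool of day 7 thus crossed by less than 0.1. Neighbours in the order of levels lay within the widest animal SD (0.32) of each other, except for the vehicle pool of day 7 and the ANP animals of day 28. The order of Cxcl1 instead had 1 sample apart, the ANP pool of day 1 at 0.74, with the other 7 groups between -4.59 and -3.43 and animal SDs of 0.15 to 1.00.

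Around the members at day 28, 1 of 22 other chemokines, 1 of 10 receptors and 1 of 15 IL6 family genes were called lower, 1 of 15 NF-kB genes was called higher, and 0 of 16 adhesion and 0 of 35 interferon response genes were called by limma; at an unadjusted p under 0.05 the last 2 lists held 4 and 3 genes. Ccl11, an eosinophil attractant, had a mean of -4.69 in ANP animals and -3.71 in vehicle animals (log2 ratio -0.98 ± 0.24 SE, limma adjusted p = 0.0368). Ccr7, the lymph node homing receptor, was lower by a log2 ratio of -1.25 ± 0.32 (SE, limma adjusted p = 0.0429), and the cytokine Osm by -0.43 ± 0.10 (SE, limma adjusted p = 0.0284). Tnip1, an inhibitor of NF-kB signalling that binds A20, was higher by 0.58 ± 0.15 (SE, limma adjusted p = 0.0490). Each of these 4 calls was lost in 6 to 8 other settings. The median of the interferon response list was -0.06, with 22 of 35 genes below 0. Cxcl9, the third ligand of Cxcr3, had log2 ratios of -0.78 at day 14 and -0.51 at day 28. Neither passed the test (limma adjusted p of 0.405 and 0.422).

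Markers of T and NK cells, which carry Cxcr3, lay mostly below 0 at day 28. Of 11 such markers 0 were called by limma (2 at an unadjusted p under 0.05) and 10 were below 0, and their summed level was 1.84 to 1.95 in ANP animals, against 2.18 to 2.92 in vehicle animals, without overlap. At day 14 the T and NK cell sums overlapped, with 1.63 to 2.91 in ANP animals and 2.01 to 3.44 in vehicle animals. The Cxcr3 transcript itself had log2 ratios of 0.54 at day 14 and -0.06 at day 28 (limma adjusted p of 0.648 and 0.945). The cortical markers summed to 427 to 533 in ANP animals of day 28, against 574 to 679 in vehicle animals, and to 227 to 319 in ANP animals of day 14, against 229 to 454 in vehicle animals. Of 8 collecting duct markers at day 28, 7 were below 0, with a median of -0.50, and 2 were called lower by limma, the sodium channel subunit Scnn1g (log2 ratio -0.71, adjusted p = 0.0245) and the proton pump subunit Atp6v1b1 (-0.62, adjusted p = 0.0148). The collecting duct sums overlapped at day 28 (80.7 to 162 in ANP animals, against 133 to 139 in vehicle animals) and did not at day 14 (92.2 to 116 in ANP animals, against 118 to 167 in vehicle animals). Of 8 endothelial markers, 1 was called lower at day 28, the VEGF receptor Kdr (-0.52, limma adjusted p = 0.0148), while the endothelial sum overlapped on both days. Calls at day 28 also went the other way, with 1 of 8 straight proximal tubule markers higher and 0 lower. Of 9 cortical markers, 1 was called higher and 1 lower, and of 7 thick ascending limb markers 1 was called lower. Over all genes 2.63% were called lower and 4.47% higher. The part of these markers in the Cxcl11 difference was not tested.

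Ccl20 and Cxcl16 were higher at day 28 than at day 14 in vehicle animals, in a comparison added after the data had been seen. Ccl20 was at -2.81, -1.36 and -3.74 in vehicle animals of day 28, against -4.79, -6.27 and -6.06 in vehicle animals of day 14, where only the first was well above background. With the values below background raised to the lowest signal well above background on their arrays, the day 28 mean was at least 6.79-fold higher; the other probe gave at least 4.44-fold. In ANP animals it was at -3.15, -3.51 and -2.56 at day 28, against -7.71, -4.88 and -5.61 at day 14, where only the second was well above background, and was at least 5.16-fold higher (at least 3.60-fold with the other probe). By limma, 2 of 8 members were called higher in vehicle animals, beside 7.01% of genes, and 1 in ANP animals, beside 3.61%. Ccl20 was in both counts (limma adjusted p of 0.0286 in vehicle and 0.0495 in ANP animals). Both Ccl20 calls rest on day 14 values that were at background in 2 of 3 animals. Ccl20 passed the filter only through the day 28 groups, where it was well above background in 3 of 3 animals. The filter thus favoured this direction, and the Ccl20 calls are not independent support for the difference. The call in ANP animals was lost in 12 of 15 other settings, each removal of 1 ANP animal among them (limma adjusted p up to 0.120). The call in vehicle animals was lost in 5 of 15, namely the fit of the 2 groups alone and the removal of animal 1 or 2 of day 28 or of animal 2 or 3 of day 14 (limma adjusted p up to 0.106). Every day 28 animal of either treatment exceeded every day 14 animal. Cxcl16 was the other member, higher at day 28 in vehicle animals by 0.86 ± 0.24 (SE, limma adjusted p = 0.0436), a call lost in 6 of 16 other settings, among them the removal of any vehicle animal except animal 1 of day 14 (limma adjusted p up to 0.149). The vehicle groups of the days lay on different slides, so that age, dosing time and slide cannot be told apart. On the slide shared by vehicle animals of day 28 and ANP replicates 2 and 3 of day 14, Ccl20 was at -3.74 or above in the first and at -4.88 or below in the second. Those animals differ in treatment as well as day, and ANP replicate 3 was not well above background. The part of the slide was not tested.

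The members were not all alike in how they varied. Over the 16 arrays, which share tissue and platform and include the day 1 pools, Pearson's r of log2 levels was 0.86 between Ccl2 and Icam1, 0.81 between Cxcl1 and Icam1, 0.76 between Ccl20 and Cxcl16, and 0.75 between Cxcl1 and Ccl2. It was 0.66 between Cxcl11 and Cx3cl1, 0.65 between Cxcl10 and Icam1, 0.60 between Cxcl10 and Ccl2, and 0.25 between Cxcl10 and Cxcl11. Among 11854 genes well above background on at least 8 arrays, those most like Cxcl1 were Rnd1 (0.965), Prr7 (0.940) and Tgif1 (0.936). On the 12 arrays of days 14 and 28, without the pools, these values were 0.872, 0.761 and 0.703. The genes most like Ccl2 over the 16 arrays were Tnf (0.896), Ccl12 (0.881) and Inhba (0.861). Cxcl11 was most like Qsox2 (0.863), Cyp2c11 (0.861) and Neu3 (0.840), and Cxcl10 most like Hmgn3 (0.906), Dnmt1 (0.884) and Myo1f (0.839). Ccl20, which was well above background on 12 of the 16 arrays, was most like Igfbp2 (0.909), Sema3e (0.908) and Kctd5 (0.900), and Cxcl16 most like Zmynd15 (0.959), Dagla (0.931) and Stx6 (0.918). Cx3cl1 was most like Cpsf7 (0.849), Upf3b (0.849) and Xrcc1 (0.828), and Icam1 most like Rassf4 (0.875), Ptx3 (0.860) and Ccl2 itself. These values describe likeness over the same arrays and carry no test.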

How the data were processed

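Spot intensities of 16 Cy3 arrays were extracted by the authors (Agilent Feature Extraction, version 10.7 in the submitters' processing notes); the deposited processed signal is a background-subtracted linear intensity, per the file headers. The deposited value table is a ratio made by the authors, the signal divided by each array's 75th percentile, as a match of the values showed. Probes were named by RefSeq accession against a table of GRCr8 (27460 of 61657 probes; 93.9% of NM and 1.9% of XM accessions matched).

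Log2 intensity minus the array's 75th percentile was used, with outlier spots (0 to 9 per array) left out and 0 saturated spots. Each gene took its brightest probe, kept where every array of some group marked it as well above background, which left 11849 genes. For days 14 and 28, limma 3.58.1 (R 4.3.3) was fitted (lmFit, eBayes; 12 arrays, 1 mean per group; Benjamini-Hochberg, threshold 0.05). For days 1 and 7 a 2-fold difference was counted, where both pools (members) or at least 1 pool (lists) were well above background; the first rule was chosen as the leading one after the data had been seen. Named genes were the members, list genes that passed the test, up to 4 list genes with the widest ratio in the pools, and the 3 genes most like each member. The members and lists were chosen with earlier results of these data known.

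In simulated data on 11849 genes, 87% of changes of 1 on the log2 scale were recovered at day 14, and 90% of those at day 28. The simulated noise was independent between arrays, without slide effects, and the changed genes were drawn at random. These shares therefore do not apply to members with a wide SE, such as Ccl2 (0.74) and Cxcl1 (0.49). Alternatives were quantile and median scaling, normexp (offset 50, on the median signal, since no mean signal column was used), the authors' table, other filters, probe means, blocks for replicate and slide, 2-group fits and removal of each animal. The number of arrays limits the precision.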

Additional observations from a re-analysis of the deposited data

How the results depend on the processing

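At day 14, 57 genes were called in all; the count was 119 with normexp, 28 without the filter on dim probes, 36 with the replicate block, 133 with the slide as a random block, 0 with the slide as a fixed block, 22 with the 2 groups alone, and 1 to 56 with 1 animal left out. The 1 member called at day 14 became 0 without the filter, with averaged probes, with the replicate block, with the slide as a fixed block, with the 2 groups alone and with any animal left out (0 to 0). At day 28, 842 genes were called, 1857 with the slide as a random block, 431 with the 2 groups alone and 211 to 754 with 1 animal left out. The random block is no check on slide at day 28, since the 2 groups lay on different slides. Its fitted slide correlation was -0.09. The 1 member called at day 28 became 3 with normexp and 0 to 1 with 1 animal left out. The difference between days called 0 genes, and 0 to 2 with 1 animal left out. The 2 members called between the vehicle groups of days 28 and 14 became 1 without the filter, with the filter on all 12 arrays and with the 2 groups alone, and 0 to 2 with 1 animal left out; the 1 member called between the ANP groups became 0 with quantile normalization, normexp, no filter, the filter on all 12 arrays, averaged probes, the replicate block and the 2 groups alone, and 0 to 0 with 1 animal left out. The 1 member at 2-fold at day 7 became 0 with normexp. The causes were not tested. The counts over time include Ccl20, which was near background at day 14 and passed the filter only through the day 28 groups. The 4 members at least 2-fold higher at day 1 with both pools well above background were 5 with Sele, measured in 1 pool. No result named here reversed under these alternatives while called.

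Same-numbered animals were not shown to be paired: their deviations from the group means correlated at 0.13, 0.07 and 0.14 at day 14 and at -0.07, -0.05 and 0.11 at day 28. The replicate block left the Cxcl11 ratio at -0.99 at day 14 with a limma adjusted p of 0.0600. Genes near background (Il6, Sele, and Ccl20 at day 14) have no dependable ratio on this array.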
